A study of Mus musculus with 9 samples.

Results

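The CCN matricellular family was followed in D2A1-d, a mouse breast carcinoma cell line, after knockdown of the Mediator subunit gene Med1. Its members here are the 5 genes Ccn1 (older symbol Cyr61), Ccn2 (Ctgf), Ccn3 (Nov), Ccn4 (Wisp1) and Ccn5 (Wisp2), found by gene identifier among the 55335 genes counted. The family was chosen by name, with the hairpin responses of Ccn1 and Ccn4 in these libraries already known, so every fold change of a CCN gene below is a description and carries no p-value. Cells with the hairpin shMed1 #2 (3 samples, labelled Med1 knockdown), cells with the hairpin shMed1 #4 (3 samples, also labelled Med1 knockdown) and cells with a non-targeting control hairpin, NTC (3 samples, labelled wild type), were compared. All groups were transduced cells grown in medium with serum, with no other treatment recorded. The vector, its promoter and any cloning of the transduced cells were not given in the sources used here. The samples are numbered as biological replicates, but separate cultures or transductions are not described, so each p-value rests on sample-to-sample spread that may be technical in part.

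CCN proteins are secreted, cysteine-rich proteins of the extracellular matrix that act through integrins and proteoglycans rather than as structural fibres. Most are built from an IGF-binding-protein-like module, a von Willebrand factor C module, a thrombospondin repeat and a C-terminal cystine knot, and CCN5 lacks the last of these. Ccn1 and Ccn2 are known for rapid induction by serum, mechanical tension, YAP with TEAD factors, SRF and TGF-beta, and in breast cancer CCN1 is known for effects on adhesion and invasion. Ccn4 was first described as a gene induced by Wnt-1 in mouse mammary epithelial cells.

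The short coding run of the IGF-binding-protein motif, the cysteine cluster in the first module, is shown here because it marks these 5 genes as relatives while their RNAs remain separable. The runs are printed 5′ to 3′ on the coding strand from GENCODE M21 transcripts, with capitals for the 13 of 24 bases that are identical in all 5 genes.
Ccn1: GGCTGcggcTGCTGtaaggTcTGc
Ccn2: GGCTGcggcTGCTGccgcgTcTGc
Ccn3: GGCTGctccTGCTGtccggTgTGc
Ccn4: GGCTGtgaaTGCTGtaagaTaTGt
Ccn5: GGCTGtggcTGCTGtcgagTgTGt
The coding sequence was 753 bases in Ccn5, against 1044 to 1137 bases in the other 4 genes. No stretch of 31 bases was shared between annotated transcripts of any pair of the 5 genes, so a read of that length without mismatches belongs to 1 member.

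For Ccn1, the member with the highest level and the gene called higher with both hairpins, the promoter is printed as RefSeq gives it for GRCm38.p6. The promoter table matched 1 of the 5 genes. The window holds the 250 bases before the annotated start, chr3:145649986-145650235 on the minus strand. Capitals mark a TEAD core (GGAATG, matched on the opposite strand at -103 to -98), a CRE core (TGACGT, matched on the opposite strand at -59 to -54) and a TATA box (TATAAA, at -25 to -20).
Ccn1 promoter: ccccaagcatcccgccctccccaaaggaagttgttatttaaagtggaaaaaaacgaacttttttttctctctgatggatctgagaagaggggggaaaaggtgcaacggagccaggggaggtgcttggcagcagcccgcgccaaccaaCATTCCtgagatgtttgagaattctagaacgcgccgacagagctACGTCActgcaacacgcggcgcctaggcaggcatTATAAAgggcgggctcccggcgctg
Of 32851 promoters of the same length, 12.6% held GGAATG on either strand, 6.47% held TGACGT on either strand and 7.59% held TATAAA on the gene's strand. The letters of AP-1 (TGANTCA, in 6.75% of promoters), of a SMAD box (GTCTG, in 42.2%) and of a CArG box (in 1.47%), each searched on both strands, did not occur in this window. None of the matched motifs overlapped another, and a match is a description of letters, not of binding.

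Library totals ran from 8123918 to 8879982 counts, and 13611 genes had enough counts to be tested. A gene is called higher or lower where its Benjamini-Hochberg adjusted p, over all of these genes, was under 0.05 in edgeR's quasi-likelihood test. Levels are given in CPM, TMM-scaled counts relative to library size, and a count of 3 equalled 0.338 to 0.369 CPM before that scaling. The targeted gene Med1 ranged from 22.1 to 25.2 CPM with shMed1 #2 and from 25.02 to 26.6 CPM with shMed1 #4, against 79.8 to 87.5 CPM in NTC. The 7 mammary carcinoma markers summed to 2724 to 2849 CPM with shMed1 #2 and 2453 to 2523 CPM with shMed1 #4, against 1912 to 1957 CPM in NTC. Of the 3 of them that were tested, Vim was higher with both hairpins, averaging 2778, 2444 and 1872 CPM in shMed1 #2, shMed1 #4 and NTC, and the luminal keratin genes Krt18 (18.8, 43.7 and 50.7 CPM) and Krt8 were lower with both. The epithelial adhesion genes Epcam and Cdh1 had 0 and at most 2 counts in any of the 9 libraries. In each group 4 of the 6 leukocyte markers had 0 counts, among them Cd3e, Itgam and Adgre1. The 6 summed to at most 3.36 CPM, and 1 of them was tested and was not called with either hairpin. The 5 endothelial markers summed to at most 1.32 CPM. The 7 fibroblast markers summed to 80.9 to 89.0 CPM with shMed1 #2 and 114 to 126 CPM with shMed1 #4, against 173 to 188 CPM in NTC. Dcn, Lum and Fap had at most 1 count in any library. The other 4 fibroblast markers were tested, and 4 were lower with shMed1 #2 and 2 with shMed1 #4. Of all tested genes 21.9% and 14.1% were lower in these comparisons. The part of these shifts in the CCN values was not tested.

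Ccn1 was the dominant CCN transcript and rose with both hairpins, more with shMed1 #2. Ccn1 (ENSMUSG00000028195.4, chromosome 3, 145646976 to 145649981, minus strand, GRCm38) encodes a secreted integrin ligand and is an immediate early gene. It had 995, 929.7 and 827 CPM in the shMed1 #2 samples, 533, 542 and 529.7 CPM in the shMed1 #4 samples, and 393, 404 and 346 CPM in the NTC samples. No pair of groups overlapped: each shMed1 #2 library was above each shMed1 #4 library, and each of these was above each NTC library. The means were 917 ± 84.4 CPM with shMed1 #2, 535 ± 6.58 CPM with shMed1 #4 and 381 ± 31.02 CPM in NTC (SD, n = 3 each). The log2 fold change was 1.27 (SE 0.0595) with shMed1 #2 and 0.49 (SE 0.0600) with shMed1 #4, or 2.41-fold and 1.40-fold over NTC. Between the hairpins, shMed1 #2 over shMed1 #4, the log2 difference was 0.78 (SE 0.0583). Med1 itself had log2 fold changes of -1.81 with shMed1 #2 and -1.71 with shMed1 #4.

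Ccn4 showed the opposite pattern, a fall with both hairpins. Ccn4 (ENSMUSG00000005124.10, chromosome 15, 66891320 to 66923201, plus strand) encodes WISP1, a secreted protein known from bone formation and fibrosis. Its counts were 17, 8 and 4 in the shMed1 #2 samples and 7, 10 and 9 in the shMed1 #4 samples, against 48, 57 and 60 in the NTC samples. The highest hairpin library, shMed1 #2 replicate 1 with 1.95 CPM, lay well under the lowest NTC library with 5.82 CPM. The means were 1.11 ± 0.764 CPM with shMed1 #2 and 1.02 ± 0.195 CPM with shMed1 #4, against 6.54 ± 0.631 CPM in NTC (SD, n = 3 each). The log2 fold change was -2.54 (SE 0.283) with shMed1 #2 and -2.67 (SE 0.290) with shMed1 #4. The hairpin groups overlapped each other, with a log2 difference of 0.13 (SE 0.418) for shMed1 #2 over shMed1 #4, so at these counts a difference between hairpins was not detectable. Without shMed1 #2 replicate 1 the log2 fold change with shMed1 #2 was -3.21.

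Ccn3 was lower by a smaller amount. Ccn3 (ENSMUSG00000037362.8, chromosome 15, 54745702 to 54754039, plus strand) encodes NOV, which is known to restrain proliferation in several cell types. Its counts were 37, 29 and 25 in the shMed1 #2 samples and 32, 37 and 33 in the shMed1 #4 samples, against 44, 43 and 47 in the NTC samples. Neither hairpin group overlapped NTC, and the hairpin groups overlapped each other. The means were 3.50 ± 0.696 CPM with shMed1 #2 and 4.00 ± 0.395 CPM with shMed1 #4, against 5.32 ± 0.131 CPM in NTC (SD, n = 3 each). The log2 fold change was -0.60 (SE 0.214) with shMed1 #2, which passed the threshold, and -0.41 (SE 0.209) with shMed1 #4, which did not. The call with shMed1 #2 was lost in DESeq2 (-0.60), without shMed1 #2 replicate 2 (-0.57) and without shMed1 #2 replicate 3 (-0.48).

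Ccn5 and Ccn2 lay near the limit of detection. Ccn5 (ENSMUSG00000027656.7, chromosome 2, 163820861 to 163833146, plus strand), the member without the C-terminal module, had counts of 8, 6 and 6 in shMed1 #2 and 10, 11 and 5 in shMed1 #4, against 11, 12 and 10 in NTC. The shMed1 #2 libraries lay below the NTC libraries, and those of shMed1 #4 overlapped them. Its log2 fold changes of -0.76 (SE 0.431) with shMed1 #2 and -0.36 (SE 0.407) with shMed1 #4 did not pass the threshold. Ccn2 (ENSMUSG00000019997.11, chromosome 10, 24595442 to 24598683, plus strand), which encodes connective tissue growth factor, known for its role in fibrosis, had counts of 3, 0 and 3 in shMed1 #2 and 5, 3 and 4 in shMed1 #4, against 10, 9 and 4 in NTC. Ccn2 did not pass the filter on low counts. From summed counts of 6 and 23, the ratio of Ccn2 in shMed1 #2 to NTC was 0.253, with an exact 95% interval of 0.0842 to 0.639. From 12 and 23 counts, the ratio of shMed1 #4 to NTC was 0.515 (0.233 to 1.08). These intervals cover counting error only, and the lowest NTC library, with 4 counts, was below the highest shMed1 #4 library. In a fit without the filter, Ccn2 was called lower with shMed1 #2 (log2 fold change -1.92, SE 0.675) and not with shMed1 #4 (-0.94, SE 0.586). At counts this low that call is a description and carries no weight as support. Ccn6, the remaining family gene and not among the 5 members, had counts of 6, 6 and 11 in shMed1 #2 and 6, 8 and 9 in shMed1 #4, against 6, 7 and 7 in NTC, and its groups overlapped.

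**Figure D1:**
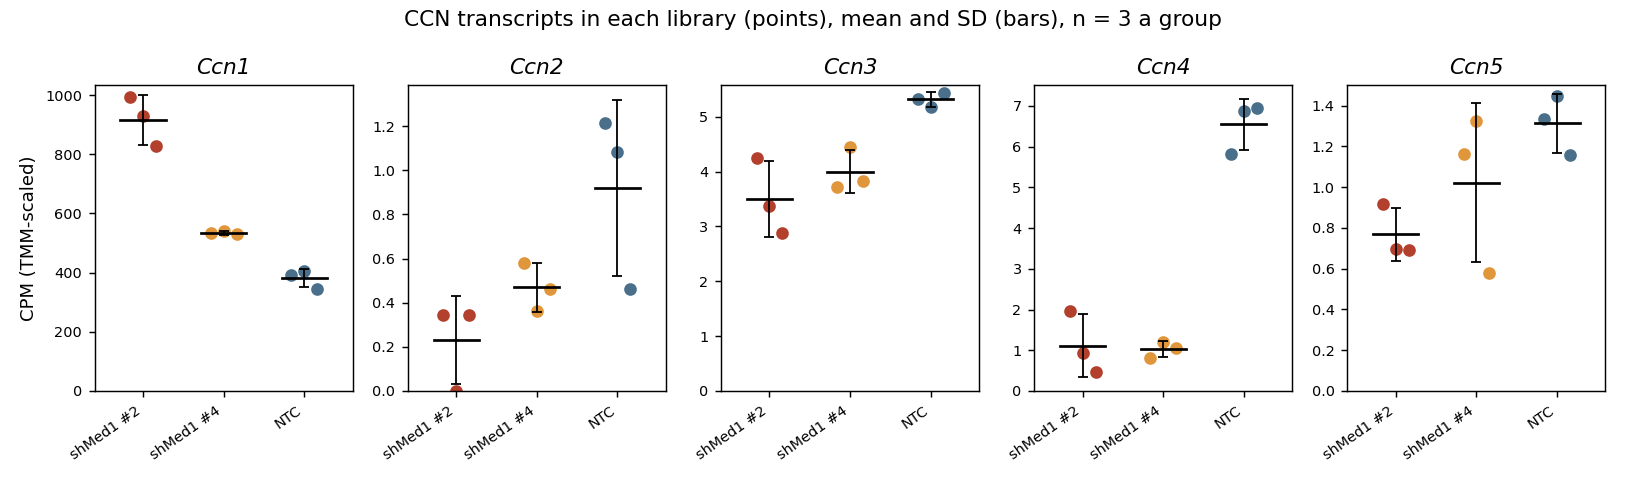
CPM of each CCN gene in every library, with shMed1 #2, shMed1 #4 and NTC from left to right. Points are libraries, bars are the mean and SD of 3 libraries, and each panel has its own axis. Ccn1 spans 346 to 995 CPM with no overlap between groups, while no library of the other 4 genes exceeds 6.95 CPM.

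Of the 5 members 4 passed the filter and were tested. Ccn4 and Ccn5 reached the minimum in all 3 NTC libraries, with 1 or 0 of 3 libraries reaching it in each hairpin group. They thus entered the test through NTC alone. The counts and the medians below that include them carry no weight as support. With shMed1 #2, 1 CCN gene was called higher and 2 lower, where 43.7% of all tested genes were called, 21.8% higher and 21.9% lower. With shMed1 #4, 1 was called higher and 1 lower, where 28.2% of all tested genes were called, 14.0% higher and 14.1% lower. Called with both hairpins in 1 direction were Ccn1, higher (10.4% of all tested genes), and Ccn4, lower (10.1%). Both comparisons use the same NTC libraries. Between the hairpins only Ccn1 of the 4 tested genes was called, where 26.0% of all tested genes were. The median log2 fold change of the 4 genes was -0.68 with shMed1 #2 and -0.39 with shMed1 #4, beside -0.0035 and 0.00086 over all tested genes. Groups that did not overlap were common, at 51.5% of tested genes for shMed1 #2 and NTC, 38.9% for shMed1 #4 and NTC, and 37.5% between the hairpins. Fewer cells with a transcript and less of it per cell cannot be told apart in such bulk libraries.

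**Figure D2:**
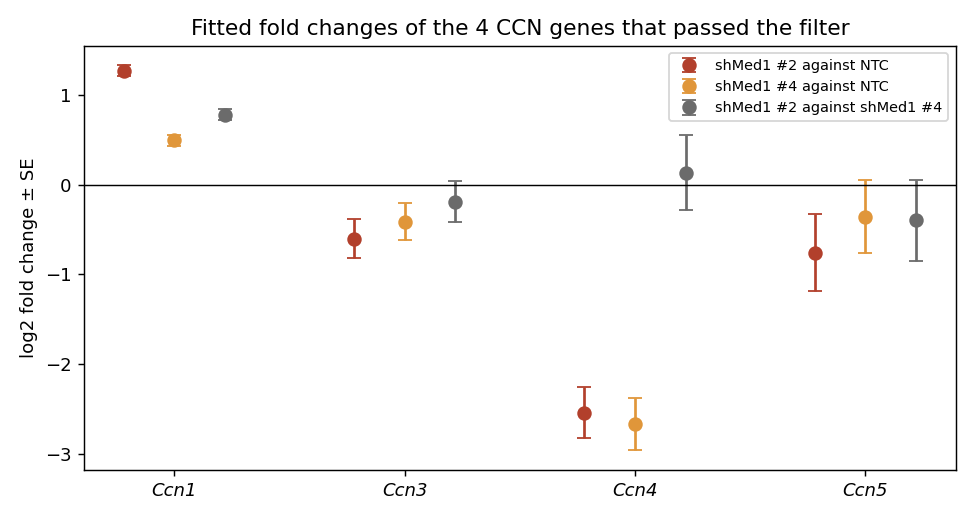
Fitted log2 fold changes (vertical axis) of the 4 CCN genes that passed the filter, with SE as bars, for shMed1 #2 against NTC, shMed1 #4 against NTC and shMed1 #2 against shMed1 #4. Ccn1 lies above 0 in all 3 comparisons, and Ccn4 lies near -2.54 and -2.67 against NTC and at 0.13 between the hairpins.

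Divided by exon length, Ccn1 made up nearly all of the RNA of the 5 members. The level of Ccn1 was 454 ± 41.8, 265 ± 3.26 and 189 ± 15.4 CPM per kilobase of exon in shMed1 #2, shMed1 #4 and NTC (SD, n = 3 each). It ranked 60th, 119th and 185th among 13603 tested genes with an annotated length. Ccn3 was next in each group, with a level of 1.22 ± 0.242, 1.39 ± 0.138 and 1.85 ± 0.0455 CPM per kilobase. In NTC the order went on with Ccn4 at 1.18 ± 0.113, Ccn5 at 0.682 ± 0.0755 and Ccn2 at 0.322 ± 0.140 CPM per kilobase, and no neighbours in this order had overlapping ranges of mean ± SD. With the hairpins the mean of Ccn5 lay above that of Ccn4. Ccn5 was at 0.400 ± 0.0677 and 0.531 ± 0.204 CPM per kilobase in shMed1 #2 and shMed1 #4, and Ccn4 at 0.200 ± 0.137 and 0.183 ± 0.0351, so that their mean ± SD ranges overlapped in shMed1 #2 and not in shMed1 #4. Ccn4 and Ccn2 did not differ beyond their spread with either hairpin, Ccn2 being at 0.0805 ± 0.0697 and 0.164 ± 0.0386 CPM per kilobase. Ccn6, not among the 5 members, is left out of this order. The level of Ccn6 was 0.623 ± 0.234, 0.635 ± 0.127 and 0.559 ± 0.0422 CPM per kilobase in shMed1 #2, shMed1 #4 and NTC. With each hairpin the mean of Ccn6 lay above that of Ccn5. Summed over the 5 genes, the level per length was 456, 267 and 193 CPM per kilobase, of which Ccn1 made up 99.6%, 99.1% and 97.9%. The exon length of Ccn4, 5565 bases over 6 annotated transcripts, is the longest of the family, and a shorter expressed transcript would give a higher level per length.

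**Figure D3:**
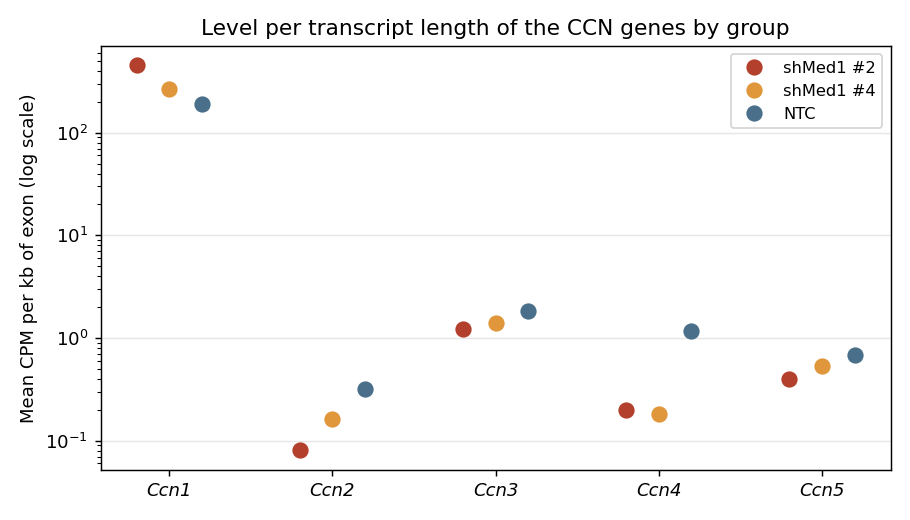
Mean CPM per kilobase of exon (log scale) of each CCN gene in shMed1 #2, shMed1 #4 and NTC, 3 libraries each. Ccn1 lies at 189 to 454, and all other points lie below 1.86.

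The genes whose pattern over the 9 libraries was most like that of Ccn1, by Pearson correlation of log2 CPM among 10507 genes (10508 for Ccn5), were Qsox1, which encodes a secreted sulfhydryl oxidase (r = 0.993), Anapc1, a subunit gene of the anaphase-promoting complex (0.992), and Palld, which encodes the actin-associated protein palladin (0.992). Correlation does not measure size, and Anapc1 had log2 fold changes against NTC of only 0.14 with shMed1 #2 and 0.06 with shMed1 #4. Palld averaged 282, 212 and 178 CPM in shMed1 #2, shMed1 #4 and NTC, an order that follows from its selection by correlation with Ccn1. For Ccn4 they were the nuclear receptor gene Nr2f2 (0.976), the NF-kB subunit gene Nfkb1 (0.976) and the mitochondrial carrier gene Slc25a30 (0.975). Nfkb1 averaged 189.9, 184 and 225 CPM in the same order, with log2 fold changes of -0.25 and -0.29. For Ccn3 they were Paxbp1 (0.970), Parp10 (0.960) and Zfp61 (0.960), and for Ccn5 they were Srek1ip1 (0.959), Ggct (0.947) and Zfp157 (0.940). The libraries fall into 3 groups and share them, so such values can follow group differences alone, and they are given without a test. Ccn5 had 5 to 12 counts in each library and was not called in any comparison. Its values are the highest of 10508 at counts near the limit of detection.

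The nearest protein-coding gene on each side of every member was then read. Ccn3 and Ccn4 both lie on chromosome 15, and the neighbour of Ccn3 at higher coordinates, Enpp2, lies 84862 bases from it on the opposite strand. The other neighbour of Ccn3, Mal2, had 0 counts in every library. Enpp2 encodes autotaxin, which makes lysophosphatidic acid. Enpp2 libraries held 6.55, 7.895 and 9.33 CPM in shMed1 #2 and 10.6, 9.51 and 9.04 CPM in shMed1 #4, against 53.1, 52.2 and 59.4 CPM in NTC. Enpp2 was lower by more than Ccn3 was, with log2 fold changes of -2.79 (SE 0.108) and -2.50 (SE 0.104) in shMed1 #2 and shMed1 #4 (edgeR adjusted p = 6.8e-38 and 7.3e-35).

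Both neighbours of Ccn4 were lower as well. Lower calls made up 21.9% of all tested genes with shMed1 #2, 14.1% with shMed1 #4 and 10.1% with both. Whether the neighbours changed together with Ccn4 was not tested. Ndrg1, a stress-responsive gene that lies 6117 bases from Ccn4 on the opposite strand, fell with log2 fold changes of -0.50 (SE 0.0471) and -0.39 (SE 0.0468) (edgeR adjusted p = 2.15e-15 and 1.19e-10). Tg, the thyroglobulin gene 40599 bases from Ccn4 on its other side, averaged 2.12 CPM with shMed1 #2 and 2.08 CPM with shMed1 #4, against 3.84 CPM in NTC (edgeR adjusted p = 0.00536 and 0.00734). Without NTC replicate 3 neither Tg call passed (adjusted p = 0.0585 and 0.0744), and over the 16 alternatives these p-values began at 0.0033 and 0.00584. The size of the Ccn4 fold change, past -2.5 with each hairpin, was larger than that of either neighbour.

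Around Ccn1, Ddah1, which degrades asymmetric dimethylarginine and lies 108694 bases away, rose by 0.28 (SE 0.0532) and 0.34 (SE 0.0531) on the log2 scale in shMed1 #2 and shMed1 #4 (edgeR adjusted p = 9.74e-06 and 1.95e-07). Znhit6, at 42181 bases, had log2 fold changes of 0.22 (SE 0.0796, adjusted p = 0.0164) and 0.07 (SE 0.0813, adjusted p = 0.599). The Znhit6 call with shMed1 #2 was lost under 4 of 16 alternatives, among them without NTC replicate 3 (adjusted p = 0.173, the highest of a range from 0.00733) and without shMed1 #2 replicate 2 (0.0848). Ada, an adenosine deaminase gene 70622 bases from Ccn5, rose with shMed1 #2 by 0.39 (SE 0.110, edgeR adjusted p = 0.00237) and had a log2 fold change of 0.11 with shMed1 #4 (adjusted p = 0.505). Between the hairpins, shMed1 #2 over shMed1 #4, Ada differed by 0.28 (adjusted p = 0.0485), a call lost under 11 of 16 alternatives (0.0259 to 0.251). The protein-coding neighbours of Ccn2, Moxd1 and Enpp1, had at most 1 count in any library, and the noncoding Gm15270, which overlaps Ccn2 on the opposite strand, had at most 5. Whether counting used strand was not given in the sources used here, so reads of Ccn2 and Gm15270 cannot be told apart where they overlap.

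**Figure D4:**
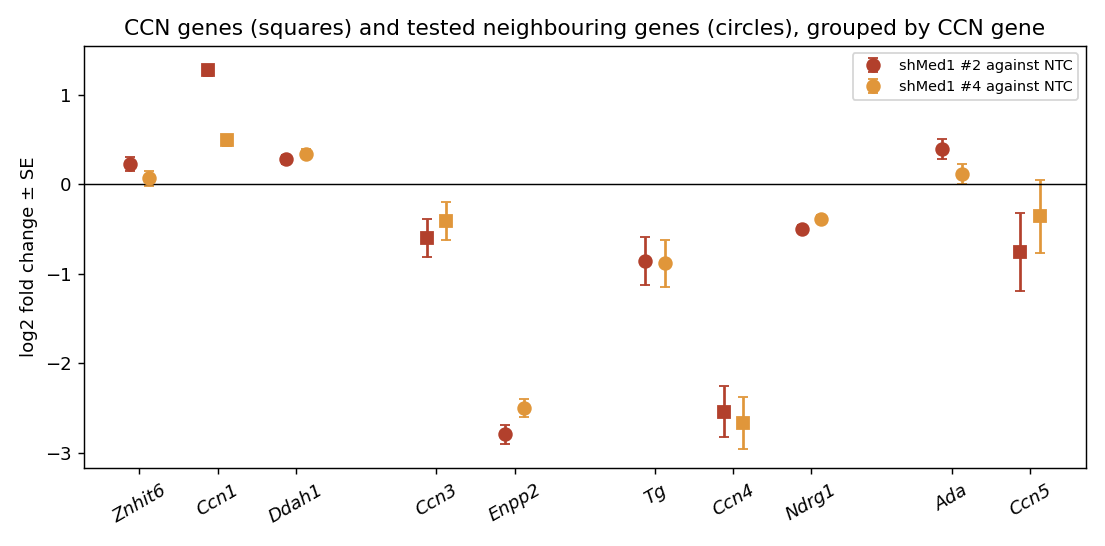
Log2 fold changes with SE of the 4 tested CCN genes (squares) and their tested protein-coding neighbours (circles), grouped by CCN gene in chromosome order, for shMed1 #2 and shMed1 #4 against NTC. Enpp2 lies at -2.79 and -2.50, well below the neighbouring Ccn3 at -0.60 and -0.41, and Ccn4 lies below both of its neighbours.

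Genes upstream of the family were then counted in lists chosen by role, each beside the shares over all 13611 tested genes. YAP and TEAD targets other than CCN genes moved in both directions: of 18 tested, shMed1 #2 had 8 higher and 6 lower (77.8% called, median log2 fold change 0.05), shMed1 #4 had 4 higher and 4 lower (44.4% called, median 0.12), and 4 were higher and 3 lower with both. Over all tested genes 43.7% were called with shMed1 #2 and 28.2% with shMed1 #4, and 10.4% were higher and 10.1% lower with both. Tissue factor, F3, rose by 1.00 (SE 0.0596) and 0.44 (SE 0.0629), with means of 108 ± 3.56, 73.0 ± 2.72 and 54.0 ± 2.43 CPM in shMed1 #2, shMed1 #4 and NTC (SD, n = 3 each). The Hippo kinase gene Lats2 rose by 0.78 and 0.43, and the ecto-nucleotidase gene Nt5e fell, with log2 fold changes of -1.12 and -0.58. Among YAP, TAZ, TEADs and Hippo kinases, 7 of 15 were higher and 3 lower with shMed1 #2, and 7 higher and 2 lower with shMed1 #4, beside 21.8% higher and 21.9% lower of all tested genes with shMed1 #2 and 14.0% and 14.1% with shMed1 #4. Lats1 rose by 0.44 and 0.41 and Stk4, another Hippo kinase gene, by 0.50 and 0.23. Yap1 itself, named after its values were seen, averaged 136, 127 and 125 CPM in shMed1 #2, shMed1 #4 and NTC. Yap1 was called higher with shMed1 #2, close to the threshold (log2 fold change 0.12, edgeR adjusted p = 0.0456). With shMed1 #4 it was not called (0.03, adjusted p = 0.727).

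SRF and MRTF with their targets, mostly genes of the actin cytoskeleton, had 23 tested members. In shMed1 #2, 13 of them were higher and 3 lower (median 0.34), and in shMed1 #4, 18 were higher and 2 lower (median 0.34). With both hairpins 13 were higher and 1 lower. The shares of all tested genes were 21.8% higher and 21.9% lower with shMed1 #2, 14.0% and 14.1% with shMed1 #4, and 10.4% and 10.1% with both. Cnn1, one of the 18 higher with shMed1 #4 and named after its value was seen, passed the filter through shMed1 #4 alone. The Cnn1 call thus carries no weight in the count. Acta1 and Tagln, which encode skeletal actin and transgelin, had means of 7.43 and 38.2 CPM with shMed1 #2 and 8.10 and 24.1 CPM with shMed1 #4, against 2.31 and 17.0 CPM in NTC. The tropomyosin gene Tpm2 was lower, at 1.31 and 3.21 CPM in shMed1 #2 and shMed1 #4, against 9.31 CPM in NTC.

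SMAD target genes other than CCN genes were called in 1 direction only, with 9 of 14 higher with shMed1 #2 (median 0.19) and 7 of 14 higher with shMed1 #4 (median 0.32), and 6 with both. Of all tested genes 21.8%, 14.0% and 10.4% were higher in these comparisons. With library size alone as scaling, 1 of them was called lower with shMed1 #2. The BMP-responsive genes Id1 and Id2 rose by 1.04 and 0.82 with shMed1 #2 and by 0.75 and 0.51 with shMed1 #4. The TGF-beta ligand, receptor and SMAD genes were called about as often as all tested genes: 1 of 10 was higher and 4 lower with shMed1 #2, where 43.7% of all tested genes were called, and 1 was higher and 2 lower with shMed1 #4, where 28.2% were. Smad3 fell, with log2 fold changes of -0.76 and -0.51, as did the co-receptor gene Tgfbr3, with -0.67 and -0.59, while Tgfb3 rose with shMed1 #4 by 0.48 (edgeR adjusted p = 0.00131) and had a log2 fold change of 0.10 with shMed1 #2 (adjusted p = 0.569).

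Of 12 Wnt and beta-catenin target genes, the class that gave Ccn4 its older name, 6 were tested. With shMed1 #2 4 of these 6 were lower and 0 higher (median -0.22), with shMed1 #4 3 were lower and 0 higher (median -0.14), and 3 were lower with both. Of all tested genes 21.9%, 14.1% and 10.1% were lower in these comparisons. Tcf7, a factor that acts with beta-catenin, fell by 2.04 (SE 0.177) with shMed1 #2, with means of 3.08, 9.16 and 12.7 CPM in shMed1 #2, shMed1 #4 and NTC. Its change with shMed1 #4 was -0.47 (SE 0.143, edgeR adjusted p = 0.0084), and over the alternatives that p ran from 0.00544 to 0.0517, the highest in DESeq2. The Wnt-inactivating enzyme gene Notum had log2 fold changes of -0.70 and -0.57. Its call with shMed1 #4 (adjusted p = 0.00978, from 0.00682 to 0.209 over the alternatives) was lost in DESeq2, without NTC replicate 3 and without shMed1 #4 replicate 2. Myc fell, with log2 fold changes of -0.27 and -0.22. Axin2 (-0.03 and 0.38) and Znrf3 (0.17 and 0.17), named after their values were seen, were not called with either hairpin. In DESeq2, 1 of the 6 was lower with shMed1 #4, and without NTC replicate 2, 1 was called higher with each hairpin; without shMed1 #4 replicate 1, 1 was higher with shMed1 #4. The targets Lef1, Dkk1 and Sp5 had 0 counts in every library.

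Among receptors reported for CCN proteins, several integrin chains were higher. Of 11 tested receptor genes, 5 were higher and 2 lower with each hairpin, the same 5 and 2 with both (median 0.01 with shMed1 #2 and 0.13 with shMed1 #4). Of all tested genes 43.7% were called with shMed1 #2 and 28.2% with shMed1 #4, with 10.4% higher and 10.1% lower with both. Itgb1, which encodes the beta 1 chain, rose by 0.83 (SE 0.0377) and 0.67 (SE 0.0377), with means of 1517 ± 24.1 and 1365 ± 6.20 CPM in shMed1 #2 and shMed1 #4, against 856 ± 18.8 CPM in NTC (SD, n = 3 each). Itgav, Itga5 and the proteoglycan gene Sdc4, named after their values were seen, completed the 5 higher genes. Itga6, which forms with beta 1 a receptor for CCN1, averaged 37.4 ± 3.01 and 29.7 ± 2.16 CPM, against 11.6 ± 2.07 CPM in NTC. The 2 lower genes were Itgb5, also named after its value was seen, and Itgb2, the leukocyte beta chain, which had 0.884 and 0.982 CPM, against 3.53 CPM in NTC. Itgb2 passed the filter through NTC alone, so its call carries no weight in the count. The partner receptor genes Notch1 and Fgfr2 were too scarce to be tested.

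Of 14 ligands and matrix proteins that CCN proteins bind, 7 had enough counts to be tested. Of these 7, 1 was higher and 4 lower with shMed1 #2, and 1 higher and 2 lower with shMed1 #4. This stands beside 43.7% and 28.2% of all tested genes called. Vegfa, the vascular growth factor gene, fell, with log2 fold changes of -0.39 and -0.43. Gja1, which encodes the gap junction protein connexin 43, was higher with shMed1 #2 (log2 fold change 0.41, SE 0.0504) and lower with shMed1 #4 (-0.34, SE 0.0537). The fibronectin gene Fn1 had log2 fold changes of -0.20 (SE 0.0378) and 0.11 (SE 0.0377). The Fn1 call with shMed1 #4 (edgeR adjusted p = 0.0161, from 0.00778 to 0.13 over the alternatives) did not hold without NTC replicate 3, without shMed1 #4 replicate 2 or when scaled by library size alone.

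Of 12 proteases known to cleave CCN proteins, 7 had enough counts to be tested. Of the 7 genes, shMed1 #2 had 5 lower and 1 higher (median log2 fold change -1.48), shMed1 #4 had 5 lower and 2 higher (median -0.94), and both had 5 lower and 1 higher in common. The all-gene shares of lower calls were 21.9% for shMed1 #2, 14.1% for shMed1 #4 and 10.1% for both. Mmp2 and Mmp13, which are among the 5, passed the filter through NTC alone, so the counts and medians carry no weight as support. The stromelysin gene Mmp3 averaged 1.96 ± 0.501 and 5.56 ± 0.708 CPM in shMed1 #2 and shMed1 #4, against 14.8 ± 1.02 CPM in NTC (SD, n = 3 each). The collagenase gene Mmp13 averaged 0.693 and 1.18 CPM, against 3.72 CPM in NTC. The gelatinase gene Mmp2 had counts of 1, 0 and 1 in shMed1 #2 and 17, 12 and 7 in shMed1 #4, against 26, 20 and 31 in NTC. From sums of 2 and 77 counts, its ratio in shMed1 #2 to NTC was 0.0252 (exact 95% interval 0.003 to 0.0941, for counting error only). The Mmp2 call with shMed1 #4 (log2 fold change -1.11) was lost in DESeq2 and without shMed1 #4 replicate 3, and it carries no weight as support.

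Relatives of the family were compared last. Of the 12 genes of the IGF binding protein superfamily 6 were tested, of which 4 were lower and 1 higher with each hairpin, the same with both, beside all-gene shares of lower calls of 21.9% for shMed1 #2, 14.1% for shMed1 #4 and 10.1% for both. Igfbp4 fell, with log2 fold changes of -0.74 and -0.56 and means of 517 ± 26.0 and 583 ± 25.6 CPM in shMed1 #2 and shMed1 #4, against 862 ± 43.6 CPM in NTC (SD, n = 3 each). Igfbp6 had log2 fold changes of -1.79 and -1.15, and Igfbp7 averaged 2.35 and 2.90 CPM, against 7.20 CPM in NTC. Other matricellular proteins split, with 2 higher and 4 lower of 7 tested with shMed1 #2, 3 higher and 4 lower with shMed1 #4, and 2 higher and 3 lower with both, beside 43.7% and 28.2% of all tested genes called with shMed1 #2 and shMed1 #4. Sparc and Tnc, which encode osteonectin and tenascin C, rose by 0.63 and 0.90 with shMed1 #2 and by 0.60 and 0.49 with shMed1 #4, while Spp1, which encodes osteopontin, was at 142 and 415 CPM, against 899 CPM in NTC.

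**Figure D5:**
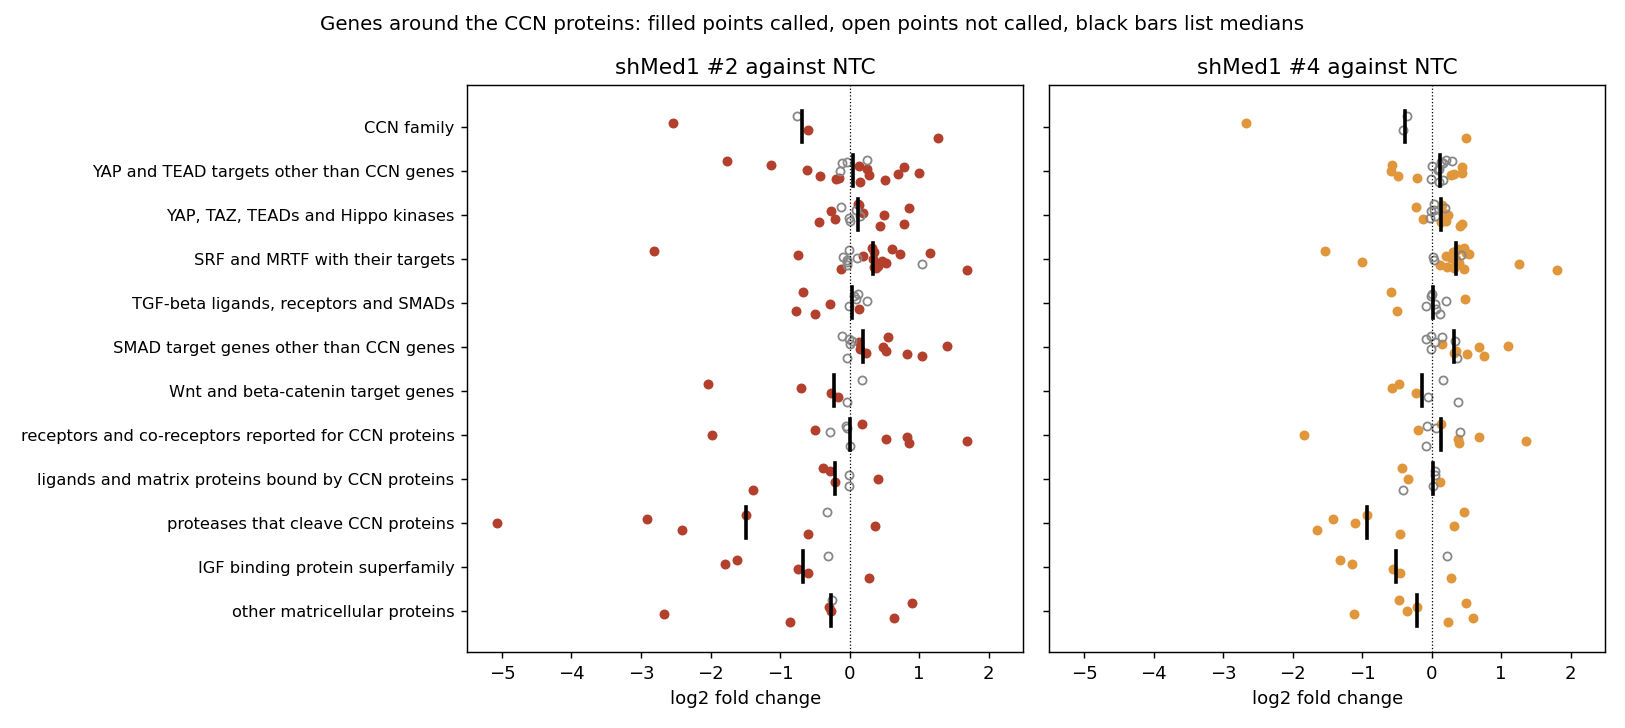
Log2 fold changes (horizontal axis) of the tested genes of the CCN family and each other list for shMed1 #2 against NTC (left) and shMed1 #4 against NTC (right). Filled points passed the threshold, open points did not, and black bars are list medians. The protease list has medians of -1.48 and -0.94, and its leftmost point, Mmp2 with shMed1 #2, rests on 2 counts. Mmp2 and Mmp13 passed the filter through NTC alone, so these medians carry no weight as support.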

How the data were processed

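The submitters' processing notes name STAR, HTSeq and GRCm38 (mm10), with tool versions, annotation release and strandedness not given in the sources used here. The authors deposited raw counts per gene, 1 file per sample, with 0 lines naming no gene. Of 55335 identifiers, 54587 matched the symbol table with their version and 55154 without it; positions and exon lengths come from GENCODE M21. Genes were kept by filterByExpr (minimum count 10) and scaled by TMM (factors 0.982 to 1.02). Differences were tested across all 9 samples, 1 coefficient per group, with the robust quasi-likelihood F-test of edgeR 4.0.16 under R 4.3.3, called at a Benjamini-Hochberg adjusted p under 0.05; SE is the log2 fold change divided by the root of F. The script was tested on simulated counts with 200 changed genes. Exact 95% intervals for ratios are conditional binomial. Members, lists and tests were chosen with earlier results of these data known. Named list genes are the 3 with the largest mean change, called with both hairpins first. Neighbours, Yap1 and the other genes marked so in the text were chosen after values were seen. Some genes within these lists are not reported here by name. Some genes named for scarcity alone also fall outside that rule. Alternatives were RLE or no scaling, 2 other filters, DESeq2 1.42.0, only the groups compared, the replicate block, and each library left out. No pair of replicates was alike within sampling noise (chi-square over its degrees of freedom 1.51 to 2.40).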

Additional observations from a re-analysis of the deposited data

How the results depend on the processing

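Over 16 alternatives, of which 9 left out a library each, no fold change of Ccn1 or Ccn4 against NTC lost its call or turned. Both responses were known when the family was chosen, and Ccn4 entered the test through NTC alone. These calls thus describe the processing and carry no weight as support. With a library left out, Ccn1 ranged from 1.20 to 1.34 with shMed1 #2 and from 0.42 to 0.54 with shMed1 #4 on the log2 scale, and Ccn4 from -3.21 to -2.17 and from -2.80 to -2.53. Ccn3 with shMed1 #2 lost its call in DESeq2 (-0.60) and without shMed1 #2 replicates 2 or 3, with values from -0.76 to -0.48 when a library was left out; the cause was not tested. Genes called numbered 4903 to 6138 with shMed1 #2, 2815 to 3878 with shMed1 #4 and 2524 to 3566 between the hairpins. The replicate numbers are not described as pairing samples, and deviations of same-numbered samples correlated at -0.0413 to 0.0416; with the replicate number as a block 5892, 3786 and 3461 genes were called, against 5947, 3836 and 3540, and no CCN call changed. Of 153 fold changes of other named genes 14 changed a call under some alternative, and of 44 list counts 7 moved by over 1.5 times, among them the 1 higher TGF-beta gene with shMed1 #2 (0 to 2) and the 2 lower YAP and Hippo genes with shMed1 #4 (0 to 2). Depth limits Ccn2, Ccn5 and Ccn6, whose counts did not exceed 12 in any library.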
